A study of Mus musculus with 6 samples.

Results

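The nuclear genes for the subunits of the respiratory chain (complexes I to IV) and of ATP synthase (complex V) were followed through a comparison of expression arrays labelled CD98hc KO with arrays labelled WT. Members were the probe sets whose single gene symbol in the platform's annotation began with Ndufa, Ndufb, Ndufc, Ndufs or Ndufv and a number, with Uqcr, with Atp5 or with Cox and a number from 4 to 8, or was Sdha, Sdhb, Sdhc, Sdhd or Cyc1. This rule found 136 of 45141 probe sets and 80 of 17097 genes, of which 79 are annotated as protein coding and 1, Ndufs5-ps, as a transcribed pseudogene. Ndufa4 and Ndufa4l2 were counted with complex IV, where the NDUFA4 protein is now placed, so that complex I had 32 genes, complex II 4, complex III 8, complex IV 19 and complex V 17. The subunits encoded by mitochondrial DNA were not analysed here.

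By their labels the cells were fibroblasts that came from mouse embryonic stem cells, with CD98hc deleted on 3 arrays (KO-labelled) and WT on 3 arrays (WT-labelled). On the KO-labelled arrays the levels of Slc3a2, which encodes CD98hc, and of fibroblast markers, given below, go against these labels. The arrays of each group carried the replicate numbers 1, 3 and 5. CD98hc is the heavy chain of a family of amino acid transporters. All cells were grown in high glucose medium with serum, glutamine, non-essential amino acids and β-mercaptoethanol, and no group received another treatment. Strain, passage and the number of clones are not given in the sources used here, nor whether the 3 arrays of each label stand for separate cultures. The p-values therefore cover the spread from array to array, which may be technical.

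The respiratory chain passes electrons from NADH (complex I) and succinate (complex II) through complex III and cytochrome c to oxygen at complex IV, and complexes I, III and IV pump protons across the inner mitochondrial membrane. ATP synthase lets the protons back and makes ATP. Most subunits are made in every cell, while several small subunits of complex IV have a second gene that is used mainly in testis, in heart and skeletal muscle, or under low oxygen.

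Values were log2 values per probe set after robust multichip average (RMA) normalisation, and each gene was read from its most variable probe set (largest SD over all 6 arrays). Slc3a2 itself had 11.65, 11.57 and 11.54 on the arrays labelled KO and 10.64, 10.67 and 10.51 on the arrays labelled WT, which goes against the labels, so directions below are those of the labels. It had 1 probe set, which may or may not lie in the deleted stretch. The marker lists also separated the labels. On the list of pluripotency markers 16 of 17 measured genes were higher on the KO-labelled arrays, with list medians of 10.61 to 10.98 on KO-labelled and 4.77 to 5.24 on WT-labelled arrays, and of 19 measured markers of fibroblasts and their matrix 13 were lower and 1 was higher, with list medians of 4.97 to 5.12 on KO-labelled and 10.23 to 10.98 on WT-labelled arrays. Several defining fibroblast markers, among them Col3a1 (4.36, 4.13 and 4.77 on KO-labelled arrays), lay near the median of 23 nonspecific probe sets (4.23). Of 12 markers of epithelial cells, 11 were higher. Fewer cells of a type and less RNA per cell cannot be told apart in such bulk samples, and the part of these marker differences in the values below was not tested. The 18 probe sets of the hybridisation controls were lower on both replicate 3 arrays than on the other 4 arrays, with a mean difference of −1.21 (replicate 3 minus replicates 1 and 5).

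Most subunit genes of the respiratory chain and ATP synthase differed little between the KO-labelled and the WT-labelled arrays, while a pair of complex IV isoforms, Cox6b2 and Cox7a1, rose by over 4-fold. Of the 80 genes, 10 were higher, 6 were lower and 64 did not pass an adjusted p of 0.05 (limma, adjusted over all 17097 genes). That is 20.0% of the members called, beside 41.9% of all genes tested (22.6% higher and 19.2% lower). The median log2 fold change (KO minus WT) was 0.08 over the members and 0.02 over all genes tested, and the median absolute value was 0.18 over the members and 0.29 over all genes. With every array centred on its median, 9 members were higher and 9 lower, beside the 10 and 6 without centring.

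The median of the members' log2 values was 10.97, 10.89 and 10.98 on the KO-labelled arrays and 10.79, 10.74 and 10.92 on the WT-labelled arrays, so the lowest KO-labelled and the highest WT-labelled array overlapped. For 31 of the 80 genes the 3 KO-labelled arrays all lay above or all below the 3 WT-labelled ones, beside 51.5% of all genes tested. The intervals were narrow for most members. In 51 of the 80 genes the 95% confidence interval of the change lay within 1.5-fold in either direction, and in 73 it lay within 2-fold. Of all 17097 genes tested, 8144 and 11685 had such intervals. A change over 2-fold that also passed the test was found for 2 genes that were higher (Cox6b2 and Cox7a1) and 1 that was lower (Ndufb8), while 19.4% of all genes met both conditions (9.27% higher and 10.1% lower). The brighter probe set of Ndufb8 fell by less than 2-fold (log2 fold change −0.33).

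**Figure D1:**
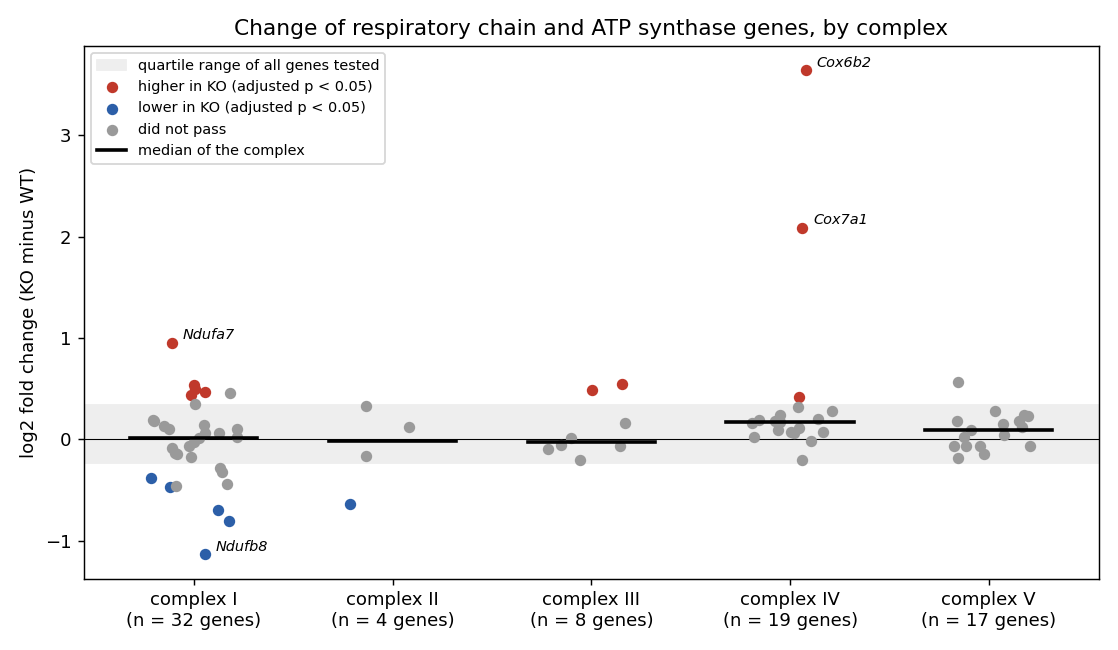
Log2 fold change (KO minus WT) of each of the 80 subunit genes, grouped by complex, with points marked as higher, lower or not passed at an adjusted p of 0.05 and a bar at the median of each complex. The grey band spans the lower to the upper quartile of all 17097 genes tested. Cox6b2 (3.64) and Cox7a1 (2.09) stand above every other gene, and the medians of the complexes lie between −0.02 and 0.17.

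Complex IV (cytochrome c oxidase) had the widest range of changes. Of its 19 genes 3 were called (15.8%, beside 41.9% of all genes tested), all higher, and all 3 were isoforms with restricted expression. Cox6b2, the testis form of subunit VIb, had log2 values of 9.02, 8.48 and 9.16 on the KO-labelled arrays and 5.34, 5.24 and 5.16 on the WT-labelled arrays. The lowest KO-labelled array lay more than 3 log2 units above the highest WT-labelled one. The log2 fold change was 3.64 (SE 0.18, 95% confidence interval 3.21 to 4.07, adjusted p = 2.2e-05 from limma), about 12.5-fold. The WT-labelled values lay about 1 log2 unit above the nonspecific median, and background in a signal that low makes the fold smaller.

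Cox7a1, the heart and skeletal muscle form of subunit VIIa, had 7.82, 7.41 and 8.14 on the KO-labelled arrays and 5.46, 5.61 and 6.05 on the WT-labelled arrays. The groups did not overlap. Its log2 fold change was 2.09 (SE 0.23, adjusted p = 0.000533 from limma), or 4.24-fold. Cox8b, the form of subunit VIII found in heart, skeletal muscle and brown fat, had 7.07, 7.31 and 6.99 on the KO-labelled arrays and 6.71, 6.57 and 6.84 on the WT-labelled arrays, with the lowest KO-labelled array close to the highest WT-labelled one. The log2 fold change was 0.41 (SE 0.12, adjusted p = 0.0276 from limma). This call was lost with median centring and when KO replicate 1, KO replicate 3, WT replicate 1 or WT replicate 3 was left out, where the log2 fold change was 0.32 to 0.44.

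The partners of these genes that are made in all tissues did not pass the test. Cox6b1 had 11.66, 11.49 and 11.57 on the KO-labelled arrays and 11.34, 11.26 and 11.52 on the WT-labelled arrays, a log2 fold change of 0.20 (95% confidence interval −0.02 to 0.42). Cox7a2 had 12.50, 12.64 and 12.46 on the KO-labelled arrays and 12.45, 12.66 and 12.52 on the WT-labelled arrays, which overlapped, with a log2 fold change of −0.01 (−0.23 to 0.20). For Cox8a the log2 fold change was −0.20 (−0.43 to 0.02), with every KO-labelled array below every WT-labelled one. Of the 11 complex IV genes other than the restricted isoforms 0 were called by limma, beside 41.9% of all genes tested. At an unadjusted p under 0.05 in limma 2 of the 11 were counted, and all 11 intervals lay within 1.5-fold.

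Within each array the difference between the isoforms of a subunit was taken, and its mean was compared between the groups, for 11 pairs. Cox6b2 minus Cox6b1 was −2.69 ± 0.30 on KO-labelled and −6.13 ± 0.20 on WT-labelled arrays (SD, n = 3 each), a shift of 3.44 (SE 0.21). The shift was 2.10 (SE 0.32) for Cox7a1 minus Cox7a2 and 0.62 (SE 0.16) for Cox8b minus Cox8a. In these 3 pairs the groups did not overlap, and the exact two-sided permutation p was 0.1, which is the smallest that 3 arrays against 3 can give (0.22 after Benjamini-Hochberg adjustment over the 11 pairs). These differences compare changes and not levels, since separate probe sets have no common scale.

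**Figure D2:**
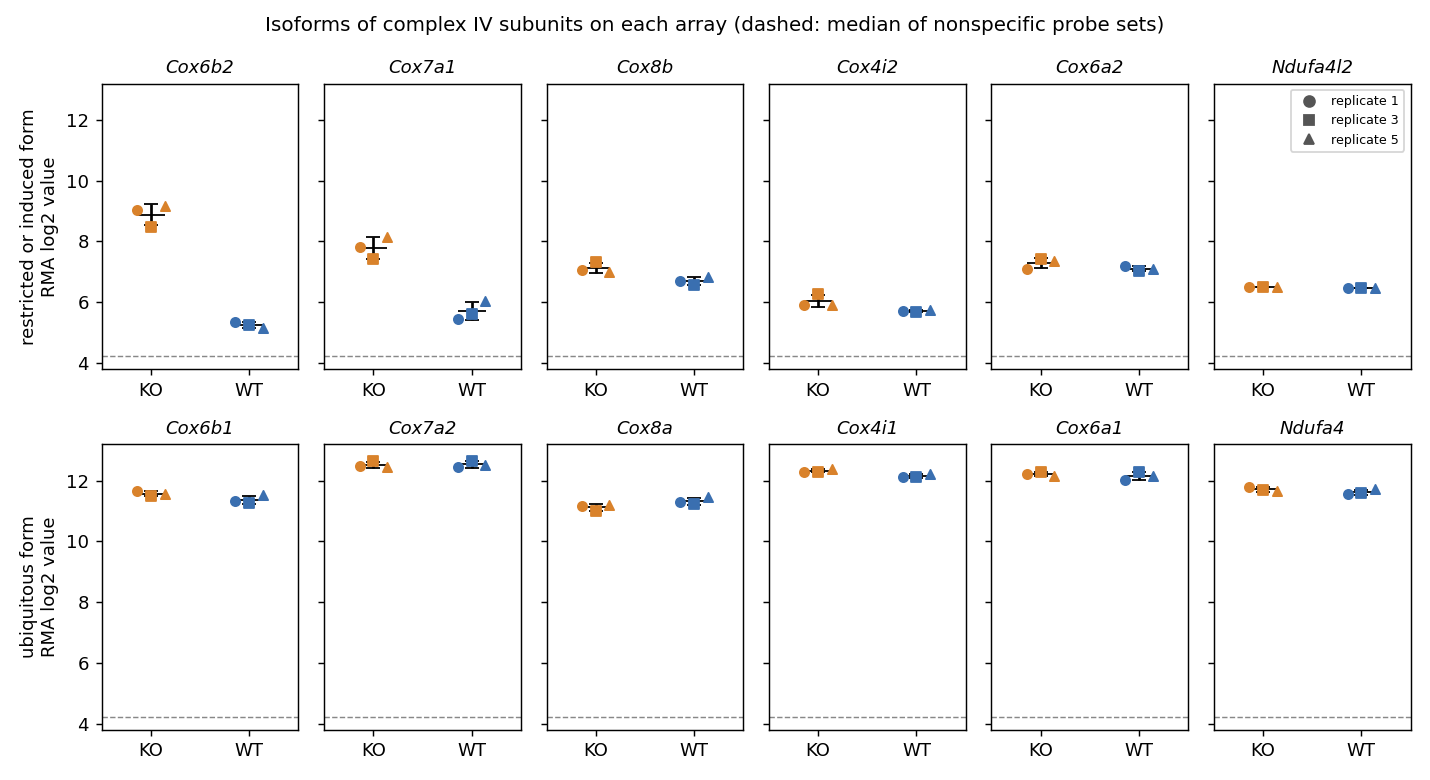
RMA log2 values on each array for 6 complex IV genes with restricted or induced expression (upper panels) and their ubiquitous partners (lower panels), KO-labelled arrays left of WT-labelled arrays in each panel. Symbols mark the replicate number, bars the mean ± SD of 3 arrays, and the dashed line the median of the nonspecific probe sets (4.23); only Cox6b2, Cox7a1 and Cox8b passed the test.

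The other restricted isoforms of complex IV did not pass. Cox4i2, a form of subunit IV that low oxygen raises in lung, had 5.91, 6.27 and 5.92 on the KO-labelled arrays and 5.71, 5.67 and 5.76 on the WT-labelled arrays. The groups did not overlap, and the log2 fold change was 0.32 (SE 0.11, adjusted p = 0.0621 from limma). Cox7b2, a testis form of subunit VIIb, lay near the nonspecific median on all arrays, with 4.45, 4.64 and 4.32 on KO-labelled and 4.16, 4.23 and 4.17 on WT-labelled arrays (log2 fold change 0.28, adjusted p = 0.0534 from limma). For Cox6a2, the heart and skeletal muscle form of subunit VIa, it was 0.19 (95% confidence interval −0.05 to 0.44), for the testis form Cox8c 0.17 (−0.19 to 0.53), and for Ndufa4l2, a paralogue of Ndufa4 that low oxygen raises, 0.02 (−0.12 to 0.16). All 8 restricted isoforms had a positive log2 fold change, as did 51 of the 80 members and 9120 of the 17097 genes tested. With median centring the median over all genes tested was −0.07 instead of 0.02, so the smallest of these changes need not keep its sign. Of the 8 isoforms 3 were called (37.5%, beside 41.9% of all genes tested), and 6 did not overlap between the groups, beside 51.5% of all genes tested.

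Most markers of the tissues in which these isoforms are known did not pass the test. Of 11 measured markers of male germ cells 1 was higher (Odf2, log2 fold change 0.71) and 0 lower, with list medians of 4.66 to 4.67 on KO-labelled and 4.46 to 4.59 on WT-labelled arrays. Prm1, a sperm protamine, had 6.75, 6.98 and 6.78 on KO-labelled and 6.75, 7.01 and 6.83 on WT-labelled arrays. Of 10 measured markers of muscle 1 was higher (Tnni3, 1.34) and 1 lower (Tnnt2, −3.34), with list medians of 5.17 to 5.28 on KO-labelled and 5.18 to 5.23 on WT-labelled arrays. Myod1, Myog and Ckm, which define muscle, did not pass.

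Upstream sequence was read for the isoform pairs with the largest shift, and for Cox6a1 and Atp5k as members with matches to the NRF1 motif. Each run is the 250 bases before the annotated start in RefSeq (GRCm38.p6), given 5′ to 3′ on the strand of the gene. Capitals mark a match on either strand to 1 of the motifs searched, GCGCANGCG (nuclear respiratory factor 1, NRF1), CCGGAAG (GABPA and other ETS factors), TCAAGGTCA (oestrogen-related receptors) and TATAAA (the TATA box). The run of Cox6b2 is at chr7:4753095-4753344, minus strand, Cox6b1 at chr7:30626115-30626364, minus strand, Cox7a1 at chr7:30183921-30184170, plus strand, Cox7a2 at chr9:79759854-79760103, minus strand, Cox6a1 at chr5:115348959-115349208, minus strand and Atp5k at chr5:108434400-108434649, minus strand.
Cox6b2: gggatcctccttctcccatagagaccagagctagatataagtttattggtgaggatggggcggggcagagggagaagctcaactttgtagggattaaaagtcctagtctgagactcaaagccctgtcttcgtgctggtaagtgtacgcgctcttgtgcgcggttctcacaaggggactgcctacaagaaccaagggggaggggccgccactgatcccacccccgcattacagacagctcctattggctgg
Cox6b1: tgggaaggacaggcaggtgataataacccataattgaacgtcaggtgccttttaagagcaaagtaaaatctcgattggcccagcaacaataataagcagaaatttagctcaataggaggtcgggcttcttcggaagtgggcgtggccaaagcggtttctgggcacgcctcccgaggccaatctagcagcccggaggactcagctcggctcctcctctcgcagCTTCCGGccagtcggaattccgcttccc
Cox7a1: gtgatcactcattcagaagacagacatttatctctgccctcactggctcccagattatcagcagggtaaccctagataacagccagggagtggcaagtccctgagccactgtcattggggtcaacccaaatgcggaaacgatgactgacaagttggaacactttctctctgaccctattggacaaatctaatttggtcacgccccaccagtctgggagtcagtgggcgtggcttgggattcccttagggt
Cox7a2: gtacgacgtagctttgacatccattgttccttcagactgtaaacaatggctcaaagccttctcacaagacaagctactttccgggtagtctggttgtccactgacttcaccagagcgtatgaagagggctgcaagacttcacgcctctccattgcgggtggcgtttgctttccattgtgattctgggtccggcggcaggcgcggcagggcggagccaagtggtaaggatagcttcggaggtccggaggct
Cox6a1: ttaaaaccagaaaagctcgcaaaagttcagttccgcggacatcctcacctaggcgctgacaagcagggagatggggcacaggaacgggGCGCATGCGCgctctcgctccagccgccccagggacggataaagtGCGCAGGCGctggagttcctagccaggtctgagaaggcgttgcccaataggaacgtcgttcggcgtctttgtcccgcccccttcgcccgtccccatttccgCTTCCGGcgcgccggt
Atp5k: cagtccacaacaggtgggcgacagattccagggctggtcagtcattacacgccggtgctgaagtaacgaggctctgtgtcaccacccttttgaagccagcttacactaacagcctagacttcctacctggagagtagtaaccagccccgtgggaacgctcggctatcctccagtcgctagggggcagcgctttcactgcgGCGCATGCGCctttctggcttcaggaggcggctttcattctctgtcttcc
Cox6b2 and Cox7a1 had no match to these letters in this window, nor did Cox7a2, while Cox6b1 had 1 GABPA match, read on the opposite strand. Cox6a1 had NRF1 matches and a GABPA match, and Atp5k an NRF1 match, which in a run of 10 capitals overlaps its own match on the opposite strand. No match says only that these letters are not in the window.

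The same letters were counted in the promoters of all members. Of the 80 genes 63 had a promoter in the RefSeq table, from 250 bases before to 50 after the start. A gene was counted if any of its promoters held the letters. The NRF1 motif was in 19 of them (30.2%), beside 11.3% of the 13605 tested genes with a promoter and 7.03% of all 27025 genes in the RefSeq table. The GABPA motif was in 15 (23.8%, beside 15.0% of tested genes and 9.93% of all genes in that table). The receptor motif was in 2 (3.17%, beside 0.382% and 0.466%) and the TATA motif in 8 (12.7%, beside 11.8% and 15.7%). Among genes with a promoter, the NRF1 letters were in 7 of 28 in complex I, 2 of 3 in complex II and 2 of 4 in complex III. They were in 7 of 15 in complex V but in only 1 of 13 in complex IV (7.69%), which was Cox6a1. So the lack of NRF1 letters in Cox6b2 and Cox7a1 was shared by most complex IV genes. The GABPA letters were in 3 of 28 (I), 2 of 3 (II), 1 of 4 (III), 3 of 13 (IV) and 6 of 15 (V). These shares describe letters in a window, not binding.

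Of the 32 genes of complex I (NADH dehydrogenase) 5 were higher and 5 lower (31.2% called, beside 41.9% of all genes tested), and the median log2 fold change of 0.02 turned to −0.08 with median centring. The called genes came from the core as well as from the accessory subunits, which surround the core and are needed for assembly and stability. The 6 core genes held 1 that rose, Ndufs1, and 1 that fell, Ndufs8. Both encode iron-sulphur subunits of the arm that carries electrons towards ubiquinone. Ndufs1 had 10.44, 10.29 and 10.43 on the KO-labelled arrays and 9.94, 9.76 and 9.95 on the WT-labelled arrays, with no overlap, a log2 fold change of 0.50 (SE 0.085, adjusted p = 0.00376 from limma). Ndufs8 had 9.27, 9.01 and 9.20 on the KO-labelled arrays and 9.92, 9.94 and 10.02 on the WT-labelled arrays, again with no overlap, a log2 fold change of −0.80 (SE 0.088, adjusted p = 0.000575 from limma). The other core genes, Ndufv1 and Ndufv2 of the NADH-binding module, Ndufs3 and Ndufs7, had log2 fold changes of −0.14 to 0.10, and none of them passed.

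Of the 26 accessory genes of complex I 4 rose and 4 fell (15.4% each way, beside 22.6% higher and 19.2% lower of all genes tested). Ndufa7, an accessory subunit of the peripheral arm, had 11.51, 11.04 and 11.27 on the KO-labelled arrays and 10.13, 10.03 and 10.79 on the WT-labelled arrays. WT replicate 5 lay closest to the KO-labelled arrays, and the call was lost without WT replicate 1 (log2 fold change 0.86, and 0.95 with all arrays, SE 0.22, adjusted p = 0.0145 from limma). Ndufs6, a subunit with a zinc site, had 11.50, 11.14 and 11.38 on the KO-labelled arrays and 10.76, 10.73 and 10.93 on the WT-labelled arrays (log2 fold change 0.53, SE 0.11, adjusted p = 0.00991 from limma). Ndufb5 and Ndufb7, subunits of the membrane arm, rose by 0.47 and 0.44 on the log2 scale, with the 3 WT-labelled values of Ndufb5 between 8.72 and 8.73 and the KO-labelled ones between 9.08 and 9.30. The brighter probe set of Ndufb7 was at 0.28 and did not pass (adjusted p = 0.166 from limma).

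Ndufb8, a membrane arm subunit that is often used as a marker of assembled complex I, had the lowest log2 fold change of all members. Its values were 7.40, 6.77 and 7.27 on the KO-labelled arrays and 8.39, 8.13 and 8.32 on the WT-labelled arrays, and the groups did not overlap. The log2 fold change was −1.13 (SE 0.18, 95% confidence interval −1.56 to −0.71, adjusted p = 0.00257 from limma). Ndufc2, a small membrane arm subunit, had 10.03, 10.20 and 10.00 on the KO-labelled arrays and 10.88, 10.70 and 10.72 on the WT-labelled arrays (log2 fold change −0.69, SE 0.088, adjusted p = 0.00108 from limma). Ndufa8 and Ndufb9 fell by 0.47 and 0.38 on the log2 scale, and in both genes the groups did not overlap. The call of Ndufb9 was lost without WT replicate 3 or WT replicate 5, with log2 fold changes of −0.38 and −0.33. Ndufs5-ps, the transcribed pseudogene, did not pass (log2 fold change −0.46, adjusted p = 0.0654 from limma), and its probe sets may read transcripts of the parent gene Ndufs5. Its brighter probe set was at 0.04 and did not pass either.

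**Figure D3:**
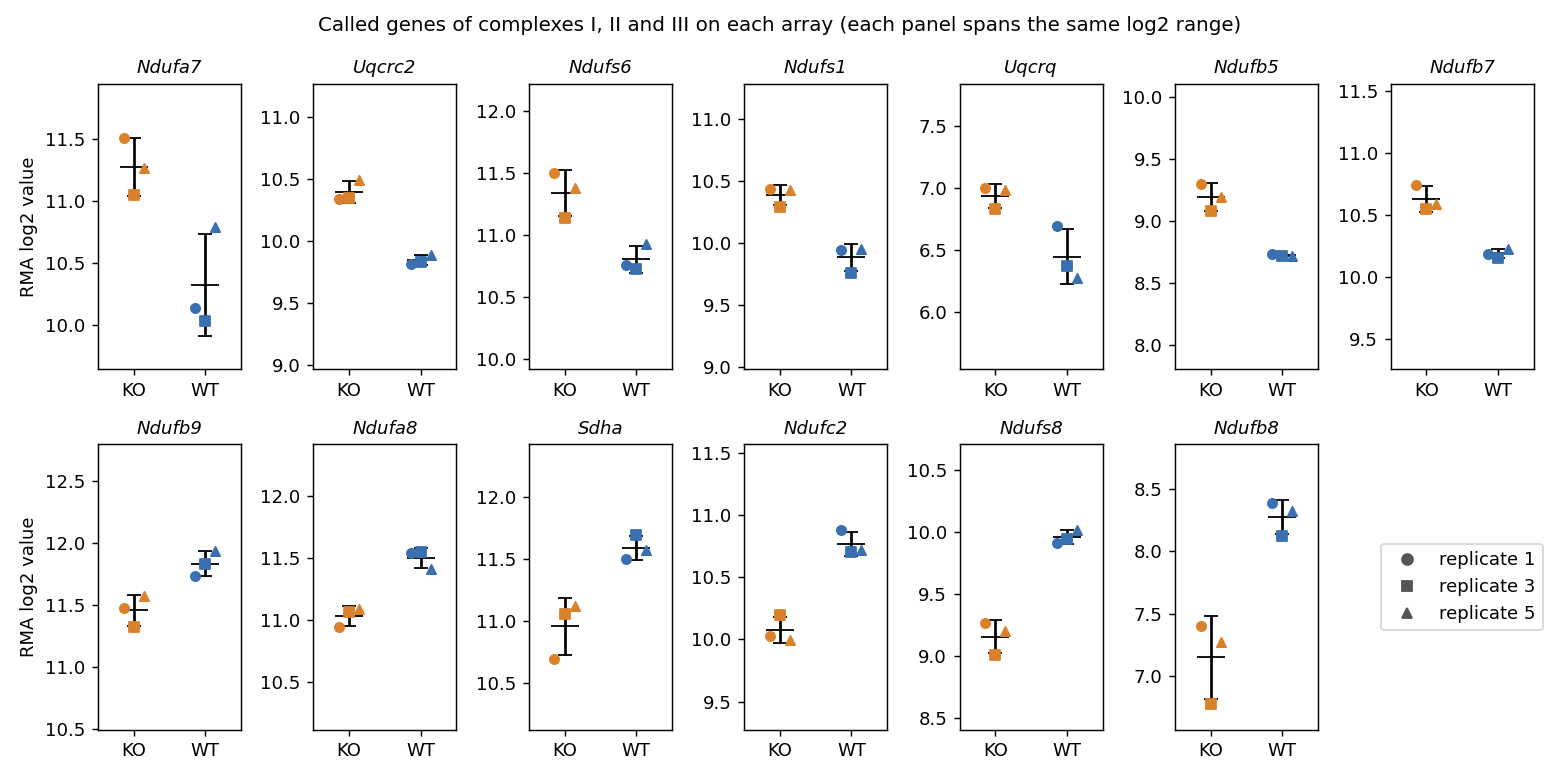
RMA log2 values on each array for the 13 called genes of complexes I, II and III, KO-labelled arrays left of WT-labelled arrays, with the mean ± SD of 3 arrays and symbols for the replicate number. The upper panels hold the 7 genes that were higher and the lower panels the 6 that were lower; the groups do not overlap in any panel.

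In complex II (succinate dehydrogenase), which also belongs to the tricarboxylic acid cycle, 1 of 4 genes was called, and it was lower. That is 25.0%, beside 41.9% called and 19.2% lower among all genes tested. Sdha, the flavoprotein that oxidises succinate, had 10.70, 11.06 and 11.12 on the KO-labelled arrays and 11.50, 11.69 and 11.58 on the WT-labelled arrays. The groups did not overlap, and the log2 fold change was −0.63 (SE 0.13, adjusted p = 0.00798 from limma). Sdhb, the iron-sulphur partner, had 11.30, 11.26 and 11.27 on the KO-labelled arrays and 11.36, 11.50 and 11.43 on the WT-labelled arrays and did not pass (−0.16, adjusted p = 0.105 from limma). The membrane anchors Sdhc and Sdhd had log2 fold changes of 0.33 (95% confidence interval −0.09 to 0.76) and 0.12 (−0.22 to 0.46).

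In complex III (cytochrome bc1) 2 of 8 genes rose (25.0%, beside 22.6% of all genes tested). Uqcrc2, a core protein of the matrix side, had 10.34, 10.35 and 10.49 on the KO-labelled arrays and 9.81, 9.83 and 9.89 on the WT-labelled arrays, with no overlap, and a log2 fold change of 0.55 (SE 0.073, adjusted p = 0.00129 from limma). Uqcrq, a small subunit that sits beside cytochrome b, had 6.99, 6.83 and 6.98 on the KO-labelled arrays and 6.69, 6.37 and 6.27 on the WT-labelled arrays (0.49, SE 0.12, adjusted p = 0.0196 from limma), a call that was lost without KO replicate 1, KO replicate 5, WT replicate 3 or WT replicate 5. Cyc1 (cytochrome c1) and Uqcrfs1 (the Rieske protein), which carry electrons, had log2 fold changes of 0.16 (95% confidence interval −0.0012 to 0.33) and −0.10 (−0.32 to 0.13). Uqcrc1, the partner of Uqcrc2 in the core, was at 0.01 (−0.27 to 0.29).

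In several of these genes the call depended on the probe set. Sdha had 4 probe sets, of which only the most variable fell, while the brightest was at −0.09 (SE 0.087) and the others at 0.08 and 0.17 with log2 values between 5.21 and 5.70 on all arrays. For Uqcrq the brightest probe set ran the other way (−0.04, SE 0.071), and for Uqcrc2 it had 0.27 and did not pass (adjusted p = 0.0517 from limma). Both probe sets of Ndufb8 fell, but by 1.13 and 0.33 on the log2 scale. Ndufs8 (4 probe sets, −0.80 to −0.31) and Ndufa7 (5 probe sets, 0.37 to 0.95) kept 1 direction, and in each 3 of the probe sets were called over all probe sets with 1 symbol. Cox6b2, Cox7a1 and Cox8b had 1 probe set each. Over all 136 member probe sets 15 were higher and 10 lower (18.4%), beside 39.4% of all probe sets with 1 symbol.

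**Figure D4:**
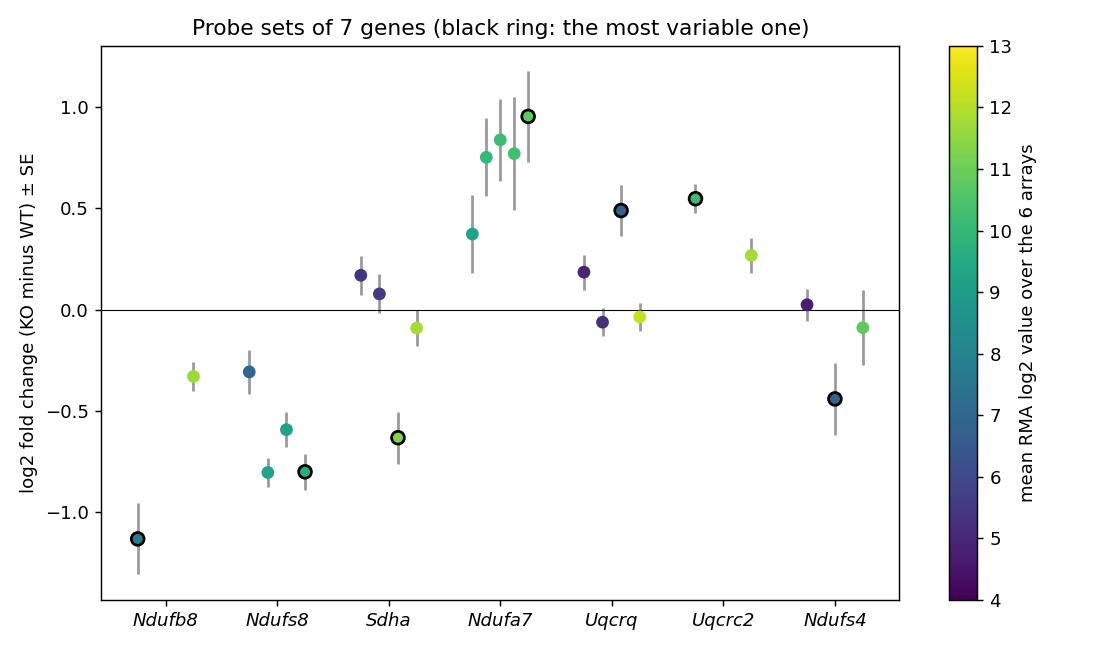
Log2 fold change (KO minus WT) ± SE of every probe set of 7 genes of complexes I, II and III, coloured by the mean log2 value over the 6 arrays, with a ring around the most variable probe set of each gene. In Sdha, Uqcrq and Ndufs4 the probe sets lie on both sides of 0, while all probe sets of Ndufb8, Ndufs8, Ndufa7 and Uqcrc2 lie on 1 side.

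In complex V (ATP synthase) 0 of 17 genes passed, beside 41.9% of all genes tested, and the median log2 fold change was 0.10. At an unadjusted p under 0.05 in limma 1 gene was counted, Atp5e. The count of higher genes was 3 without KO replicate 3 and 1 without WT replicate 5. Of the catalytic F1 part, the alpha and beta subunits Atp5a1 and Atp5b had log2 fold changes of 0.04 (95% confidence interval −0.26 to 0.34) and 0.12 (−0.15 to 0.38). The value furthest from 0 was that of Atp5e, the epsilon subunit of F1, with 10.89, 10.48 and 10.71 on the KO-labelled arrays and 10.17, 9.77 and 10.44 on the WT-labelled arrays. The groups did not overlap, but the change of 0.57 (SE 0.19) did not pass (adjusted p = 0.0531 from limma). The other 16 genes lay between −0.19 and 0.29. The 4 stalk genes, which hold F1 to the membrane part, were between −0.06 and 0.18.

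Atp5g1, Atp5g2 and Atp5g3 encode the same mature c subunit, the protein of the rotating membrane ring. Atp5g1 and Atp5g2 had log2 fold changes of 0.29 and 0.24 and Atp5g3 of −0.07, and in none did the test pass. Atp5g1 had 11.33, 11.01 and 11.40 on the KO-labelled arrays and 11.16, 10.82 and 10.91 on the WT-labelled arrays, and replicate 3 was lowest in both groups. Within arrays, Atp5g1 minus Atp5g3 shifted by 0.35 (SE 0.12) and Atp5g2 minus Atp5g3 by 0.31 (SE 0.10), KO minus WT, with an exact permutation p of 0.1 each, again the smallest possible and 0.22 after adjustment. Atp5g1 minus Atp5g2 differed by 0.05 (SE 0.099).

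Replicate 3, which stood apart in the hybridisation controls, was also the lowest array for many members. In 52 of the 80 genes KO replicate 3 was below both other KO-labelled arrays, in 45 WT replicate 3 was below both other WT-labelled arrays, and in 37 both held. The same counts were not made over all genes tested, so they are not shown to be particular to the members. With the 2 replicate 3 arrays as a covariate, 17 members were higher and 9 lower (32.5% called, beside 47.3% of all genes), among them all 10 and all 6 of the genes called without it. Without both replicate 3 arrays 8 were higher and 5 lower, of which 7 and 4 were among those called with all arrays, and Cox8b (log2 fold change 0.25), Ndufa7 (0.93), Uqcrq (0.51), Sdha (−0.63) and Ndufb9 (−0.31) did not pass.

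The genes that build and serve the complexes were taken from further lists. Of 46 measured assembly factors 16 rose and 6 fell (47.8% called, beside 20.0% of the subunit genes and 41.9% of all genes tested). Higher were 34.8% and lower 13% of them, beside 22.6% and 19.2% of all genes tested. The lists per complex are small, and the shares called were 50% (I), 100% (II), 80% (III), 22.2% (IV) and 60% (ATP synthase). Among 14 complex I factors 7 rose and 0 fell, led by Nubpl, which delivers iron-sulphur clusters (log2 fold change 1.41, SE 0.14, adjusted p = 0.00033 from limma), and Ndufaf3 (0.95). All 4 complex II factors were called, with Sdhaf1 and Sdhaf3 higher and Sdhaf2, which attaches the flavin to SDHA, and Sdhaf4 lower (−0.67 and −0.57). Among 5 complex III factors 2 rose, Bcs1l (0.69) and Ttc19 (0.47), and 2 fell, Uqcc2 (−0.73) and Uqcc1 (−0.47). Of 18 complex IV factors 3 rose and 1 fell, with Coa7 at 2.09 (SE 0.16, adjusted p = 0.000129 from limma) and Cmc1 at −1.27. For ATP synthase, the F1 assembly factor Atpaf1 (1.82) and the inhibitor Atpif1 (0.63) rose, and Tmem70, which helps to form the c ring, fell (−1.58), while 2 further genes did not pass.

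Among 12 genes of the mobile electron carriers 3 rose and 3 fell (25.0% each way, beside 22.6% higher and 19.2% lower of all genes tested). Of the synthesis and handling of ubiquinone, Coq8a (−1.86), Coq10b (−1.59) and Coq2 (−0.95) fell, and Coq8b (0.82) and Coq7 (0.28) rose. Cyct, the testis form of cytochrome c, was also called higher (0.27, adjusted p = 0.0488 from limma), at log2 values near the nonspecific median, with means of 4.80 on KO-labelled and 4.52 on WT-labelled arrays. Of 3 carriers of adenine nucleotides and phosphate 0 passed in limma (0 at an unadjusted p under 0.05), and of 2 further subunits outside the symbol rule 0 passed (1 at an unadjusted p under 0.05). In the tricarboxylic acid cycle 2 of 12 genes rose, Idh2 (1.17) and Suclg1 (0.38), and 3 fell, Suclg2 (−0.68), Dlst (−0.56) and Mdh2 (−0.30), so that 41.7% were called, close to the 41.9% of all genes tested.

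Of 21 regulators of respiratory chain genes 8 rose and 2 fell (47.6% called, beside 41.9% of all genes tested). Esrrb, an oestrogen-related receptor that is also on the list of pluripotency markers, had the largest change (6.63), followed by Epas1 (5.32), which encodes the oxygen-sensitive factor HIF-2α. Gabpa, whose motif is given above, rose by 0.89 and Tfam, the factor that packs and transcribes mitochondrial DNA, by 0.80 on the log2 scale, while Esrra fell by 0.67. Of 17 genes that stand for mitochondrial content, such as import and outer membrane proteins, 4 rose, among them the import receptor Tomm20 (1.13), and the fusion protein Mfn2 fell (−0.98), 29.4% in all. The list median was 0.16, beside 0.08 for the subunit genes and 0.02 for all genes tested.

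**Figure D5:**
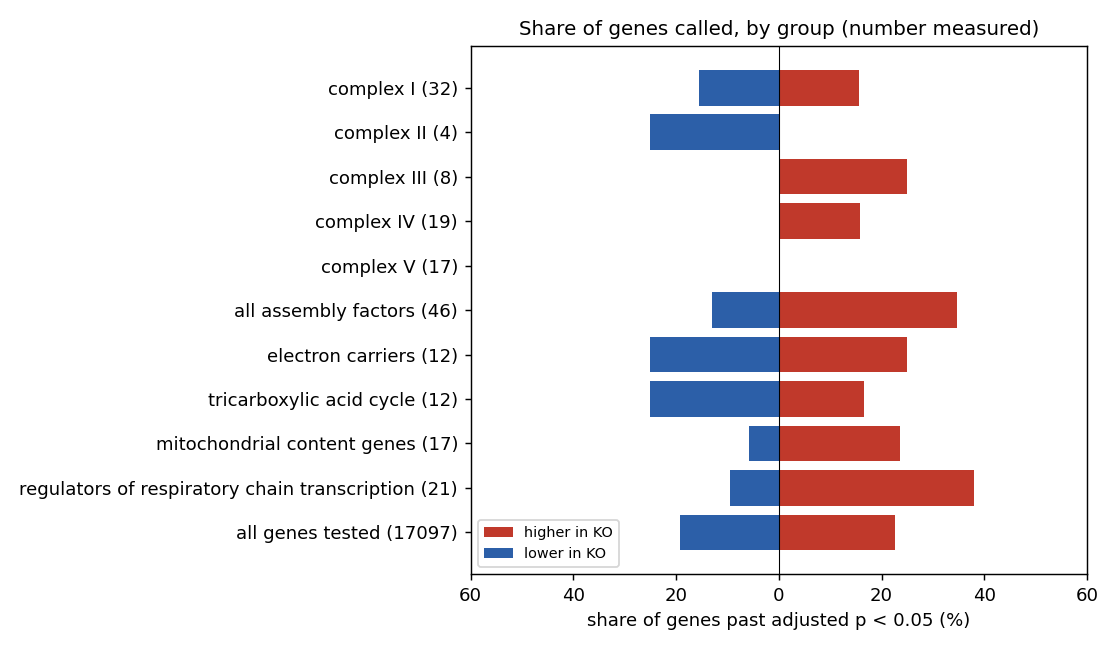
Share of genes that were higher (right of 0) and lower (left of 0) on KO-labelled arrays at an adjusted p of 0.05, in percent of the genes measured, for the 5 complexes, for other lists of mitochondrial genes and for all 17097 genes tested. The number of genes measured stands beside each name, complex V has no bar, and all genes tested show 22.6% higher and 19.2% lower.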

How the data were processed

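RNA of cells labelled as CD98hc KO and WT fibroblasts from embryonic stem cells was amplified, labelled and hybridised to Affymetrix mouse arrays, 3 per group, and groups were taken from the genotype label. The log2 values were deposited per probe set as the authors obtained them by RMA, after background correction and normalisation between arrays. No genome build was named for the annotation. A linear model, KO minus WT, was fitted to all 45141 probe sets with limma 3.58.1 (lmFit, eBayes; R 4.3.3). It had no covariate, because no source used here gives each array's scan batch, a covariate in the study's own model. Of the probe sets 28898 had 1 symbol, 551 had several and named no gene, and 15692 were unnamed here; 28689 were matched by gene identifier to RefSeq, which changed 0 symbols. Each of 17097 genes was given by its most variable probe set, p-values were adjusted over the genes (Benjamini-Hochberg), and calls were made below an adjusted p of 0.05, without a limit on the fold unless one is stated. Isoform differences were compared by exact two-sided permutation over arrays. The number of arrays limits the precision, and no detection calls were used.

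The members, the lists of other genes and the tests were chosen with earlier results of these data known. The rule for naming covered the isoform genes, up to 4 called genes per direction and complex without overlap between groups, members whose probe sets disagreed in direction, and up to 4 genes of each other list with the largest changes. Not every gene it covered was described above. Left out were Cox7a2l, Ndufa11, Ndufb4, Cox5b, Uqcr10 and Atp5j2, none of which passed. Other names were added after their values were seen. Motifs were sought as exact letters on both strands. On simulated data for this comparison, with 17097 genes, limma called 78 of 100 genes simulated with a log2 change of 1, 97 of 100 with a log2 change of 3, and 13 of 16897 without a change. Alternatives covered the replicate block, the hybridisation grouping, the choice of probe set, normalisation, a filter on dim probe sets (mean log2 value of at least 5 in at least 1 group), the variance model, a fold limit and arrays left out. Figures were drawn with matplotlib 3.10.9.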

Additional observations from a re-analysis of the deposited data

How the results depend on the processing

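Cox6b2, Cox7a1, Ndufb8 and Ndufs8 kept their direction and their call under every alternative run, except that Ndufs8 was not counted with a fold limit of 2. The fall of Ndufb8 did not reach 2-fold in every run. With the brightest probe set, with the mean of probe sets and without KO replicate 3, 0 members were lower by over 2-fold. Of the called members only Uqcrq turned, at −0.036 with the brightest probe set. Members that had not passed changed sign there too, such as Ndufs5-ps (0.04, beside −0.46) and Ndufv1 (−0.05, beside 0.03). With the hybridisation grouping as a covariate 17 members were higher, 6 of them in complex IV and 3 in complex V, and 1 complex V gene was lower. The deviations of same-numbered arrays from their group means correlated at 0.04 (replicate 1), 0.57 (replicate 3) and 0.15 (replicate 5). KO replicates 3 and 5 correlated best with the WT array of the same number, but KO replicate 1 with WT replicate 5 (0.325). Whether the replicate numbers pair the samples cannot be settled from these values. With the replicate number as a block 13 members were higher and 8 lower, with 2 higher in complex V, and Cox8b was lost. With the brightest probe set 0 complex II genes were lower and 0 complex III genes higher, and with the mean of probe sets these counts were 0 and 1, while 5 complex IV genes were higher. Over all probe sets 10 were lower, and with a fold limit of 2 the members counted were 2 higher and 1 lower. Median centring moved the median log2 fold change of the members to 0.0073, with complex medians of −0.0841 (I), −0.0961 (II), −0.0973 (III), 0.0924 (IV) and 0.0211 (V), and 2 complex II genes were then lower. Quantile normalisation, the filter on dim probe sets and the variance model each gave 1 higher complex V gene.

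With 1 array left out, or both replicate 3 arrays, the members higher numbered 8 to 13 and those lower 5 to 7. The ranges were 0 to 3 for complex V genes higher, 1 to 2 for complex III genes higher, 0 to 1 for complex II genes higher and 0 to 1 for those lower. The median log2 fold change ranged from −0.077 to 0.061 in complex II and from −0.060 to 0.15 in complex III, with 0.069 without both replicate 3 arrays. The cause of these changes was not tested. The isoform shifts stayed between 3.31 and 3.66 for Cox6b2, 1.89 and 2.34 for Cox7a1 and 0.44 and 0.72 for Cox8b. Probe sets near the nonspecific median, such as that of Cox7b2, limit what can be read of low genes.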
